A study of Mus musculus with 12 samples.

Results

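The mitosis and spindle genes are 45 genes chosen by name as a set that runs from the kinases that start mitosis to the proteins that divide the cell. The rule uses names alone, although earlier results of these data were known when the names were chosen. Of the 45 genes, 43 had a probe of that symbol on the array, out of 19057 genes with a probe. Ccnb1 and Mki67 had none under that name and were not analysed here. Each of 12 RNA samples, 4 in each of 3 groups, was hybridised to its own Illumina MouseWG-6 v2.0 BeadChip array. The first group was MB (medulloblastoma) from Ptch+/- mice, which carry 1 working copy of the Sonic hedgehog receptor Ptch1, on a C57Bl/6 background. The second was MB from NdpKO;Ptch+/- mice, which also lack Norrin, the secreted Fzd4 ligand encoded by Ndp, and whose background is labelled mixed. The last was granule neuron progenitors (GNPs), the cells from which this tumor arises, taken at postnatal day 6 from wild-type mice labelled C57Bl/6. The methods describe the Ndp allele as a lacZ cassette inserted in this X-linked gene, which restricted the compound genotype to males, while controls could be of either sex; they also describe controls from the same breeding cohort, whereas the strain labels differ between the tumor groups, so genotype, strain and sex cannot be told apart in that comparison. GNPs were enriched on a percoll gradient and by pre-plating, whereas the tumors were tissue with all of its cells. The age of the tumor-bearing mice is not given in the sources used here. A difference in age between the tumor groups could therefore not be told apart from genotype either. The GNP samples were described as coming from separate animals, whereas for the tumors this is not labelled, so that the scatter among tumor samples behind a p-value may be partly technical.

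Mitosis is the division of duplicated chromosomes between daughter cells. Cyclin-dependent kinase 1, switched on by cyclins A and B and by the CDC25 phosphatases, starts it; Polo and Aurora kinases build the spindle; the checkpoint holds anaphase until every kinetochore is attached; and the anaphase-promoting complex then frees the sister chromatids before the cell is cut. GNPs divide rapidly in the external granule layer of the neonatal cerebellum under Sonic hedgehog, which makes them a dividing reference for the tumors. Most of these genes are transcribed in a burst late in the cycle, and their promoters are known for the CHR (cell cycle genes homology region) and for CCAAT boxes, which the factor NF-Y binds.

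Those promoter motifs are shown first, since most members with a promoter entry held them. RefSeq promoters on GRCm38.p6, each from 250 bases before to 50 bases after a start of transcription, were present for 38 members in 40 windows. No entry was present for Foxm1, Ccna2, Cdc25c, Aurkb, Incenp, Tpx2 and Kif20a. The CHR was searched as TTTGAA or TTCGAA and the box as CCAAT, on both strands, so that TTCAAA and ATTGG mark matches on the opposite strand. Matches share no letters in the stretches printed below, although some do elsewhere in the windows, as in Ube2c and Cdca8. Below are the 80 bases before the start for the 9 members with a whole CHR in the last 40 of these, read 5′ to 3′ on the strand of the gene, with every CHR and CCAAT in capitals.
Cdk1, chr10:69352913-69352992, minus strand: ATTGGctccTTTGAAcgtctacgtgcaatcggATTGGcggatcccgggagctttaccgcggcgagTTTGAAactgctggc
Top2a, chr11:99024190-99024269, minus strand: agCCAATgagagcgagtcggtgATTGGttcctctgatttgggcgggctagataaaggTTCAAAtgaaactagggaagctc
Kif11, chr19:37376302-37376381, plus strand: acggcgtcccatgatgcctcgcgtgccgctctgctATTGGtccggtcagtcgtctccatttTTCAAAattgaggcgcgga
Kif15, chr9:122951001-122951080, plus strand: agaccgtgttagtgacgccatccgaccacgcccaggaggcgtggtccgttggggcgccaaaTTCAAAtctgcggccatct
Kif22, chr7:127042421-127042500, minus strand: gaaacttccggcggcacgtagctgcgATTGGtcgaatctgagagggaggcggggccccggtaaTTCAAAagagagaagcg
Cdc20, chr4:118437344-118437423, minus strand: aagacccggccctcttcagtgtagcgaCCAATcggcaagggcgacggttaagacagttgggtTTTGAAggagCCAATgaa
Ube2c, chr2:164769849-164769928, plus strand: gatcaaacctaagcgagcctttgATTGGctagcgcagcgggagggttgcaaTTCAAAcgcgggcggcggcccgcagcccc
Cdca5, chr19:6085017-6085096, plus strand: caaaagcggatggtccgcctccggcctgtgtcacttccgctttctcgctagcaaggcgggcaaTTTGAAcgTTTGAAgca
Prc1, chr7:80294396-80294475, plus strand: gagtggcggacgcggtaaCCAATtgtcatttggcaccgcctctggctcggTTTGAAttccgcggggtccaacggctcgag

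In other members the CHR lay just past the start of transcription. For 7 of these whose values are given on every array further on, the CHR is printed with up to 10 bases on either side, and only the CHR is in capitals.
Cdc25b, chr2:131186945-131186970, plus strand: gctgttatttTTCGAAtatataagga
Plk1, chr7:122159455-122159480, plus strand: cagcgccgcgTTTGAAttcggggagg
Aurka, chr2:172370523-172370548, minus strand: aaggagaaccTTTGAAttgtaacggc
Bub1b, chr2:118598241-118598260, plus strand: agacgttaaaTTTGAAactt
Cdca3, chr6:124830196-124830221, plus strand: tggagggaagTTTGAAactccgggct
Kif23, chr9:61946782-61946807, minus strand: gattggcctgTTTGAAatgcgccggg
Anln, chr9:22389170-22389195, minus strand: ggcgctgaaaTTCAAAtTTTGAAcgg

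Over whole windows, a CHR was present in 32 of 40 member windows (80%) and in 19.2% of all 32851 promoter windows of the table. CCAAT was present in 30 (75%) against 37.4%, and both motifs in 27 (67.5%) against 7.52%. By position, a CHR began no more than 50 bases from the start, on either side, in 30 member windows (75%) and in 5.31% of all windows. In 20 member windows (50%) it lay in the 50 bases after the start, against 2.46%. With the 250 bases before the start alone, the share of members with a CHR was therefore 37.5%, against 17.1%. A CCAAT lay 25 to 40 bases ahead of a CHR, counted between their first bases, in 16 member windows (40%) and in 0.706% of all windows, a spacing chosen after the positions had been seen. Nuf2, Birc5, Mad2l1, Nusap1 and Pttg1 had neither motif in their window. The 92 other mitosis genes with a promoter entry lay between, with a CHR in 51% and CCAAT in 61.5% of windows. For the 37 DNA replication genes the shares were 22.7% with a CHR, near that of the table, and 52.3% with CCAAT. Matches of letters are a description of these windows and no evidence of binding.

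**Figure D1:**
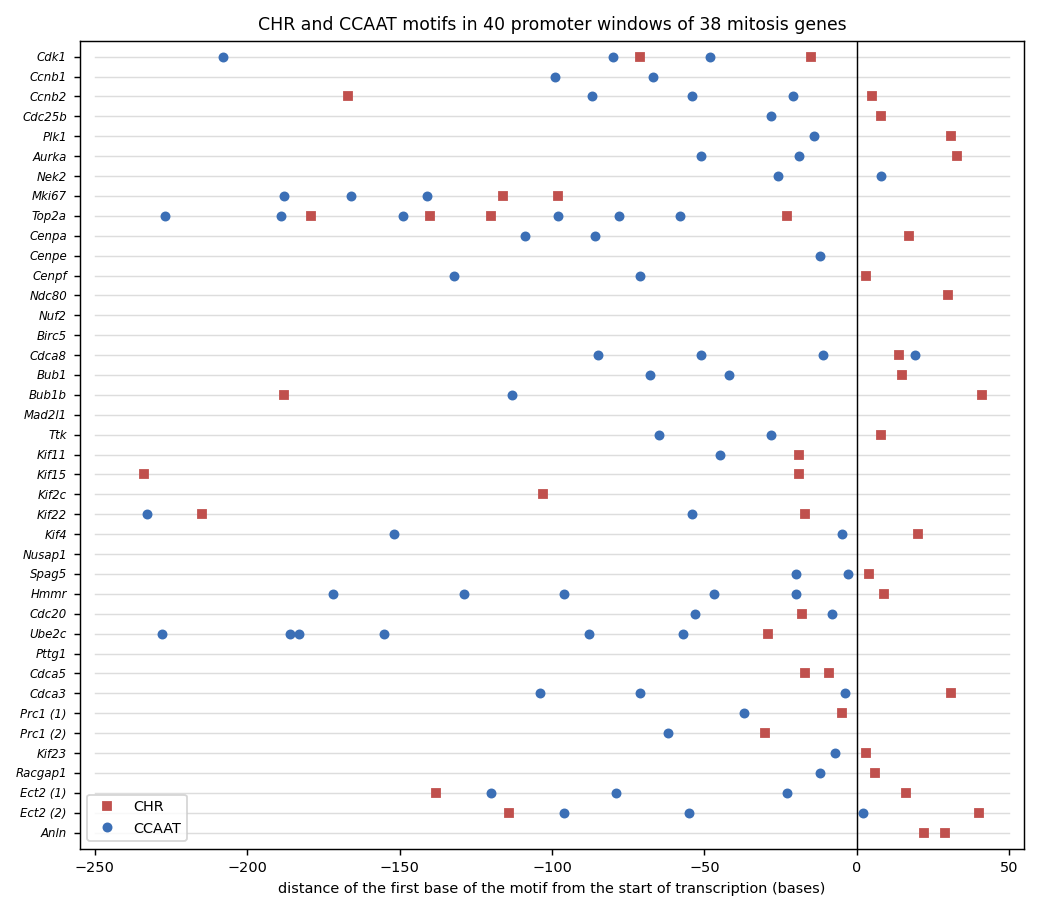
Position of every CHR (red squares) and CCAAT (blue circles) match in the 40 promoter windows of 38 members; the x axis is the distance in bases of the first base of the motif from the start of transcription (vertical line), and Prc1 and Ect2 have 2 starts each. The red squares gather within 50 bases of the start in 30 of the 40 windows, with most blue circles to their left.

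The deposited values are log2 signals on a scale whose floor lies near 4.1, and a mean of at least 4.5 over the 12 arrays was taken as measured. By this limit 34 members were measured, 31 of them at or above 4.5 on every array. Ccnb2, Cenpe, Bub1, Hmmr, Pttg1, Kif20a and Racgap1 stayed under it on all 12 arrays, and Nek2 and Ttk had means under it. A dim probe is a bound on the array's view of a gene and not a measure of absence, and levels of different probes are not compared here. The probe of Ndp lay between 4.12 and 4.21 on all arrays, under the limit, and could not check the genotype. Ptch1 ran from 8.12 to 10.59 across the tumors and did not separate the groups. Of the 13 markers of the granule lineage looked up, Zic1, Barhl1, Meis1 and Insm1 had group means above 11 in every group. The probes of Atoh1, Gli1 and Mycn were at background in all 3 groups, so these defining genes could not be checked. Of the 12 with a probe, 3 were higher and 1 lower in Ptch+/- MBs than in GNPs at an adjusted p under 0.05 (limma). In NdpKO;Ptch+/- MBs 1 was higher and 1 lower. Of all genes, 10.3% were higher and 10.9% lower in Ptch+/- MBs, and 7.69% and 7.98% in NdpKO;Ptch+/- MBs.

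Between the tumor genotypes, Foxm1, the transcription factor that drives late cell cycle genes, was the only member of the set whose difference was called. It was lower in NdpKO;Ptch+/- MBs by 1.003 on the log2 scale, a signal ratio of 0.499. No member was higher, 1 of 43 was lower and 42 were not called at an adjusted p under 0.05 (limma, Benjamini-Hochberg over all probes). Over all genes with a probe, 0.808% were called higher and 1.26% lower, and over the 8913 measured genes 1.60% and 2.59%, so that 1 of 43 members is a share near the background. At an unadjusted p under 0.05 there were 7 members (16.3%), against 16.4% of all genes. The median difference of the 34 measured members was 0.09, with 23 above 0 and 11 below, beside 0.02 for all measured genes. The 95% intervals of 27 of the 34 lay within a log2 difference of 1 in either direction and those of 16 within 0.5, which is the size of difference that these arrays leave room for.

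Foxm1 had signals of 10.38, 10.19, 10.03 and 10.26 in the 4 Ptch+/- MBs and of 9.35, 9.06, 9.30 and 9.13 in the 4 NdpKO;Ptch+/- MBs. In GNPs it had 9.75, 9.81, 9.30 and 9.21. All Ptch+/- MBs lay above all other samples, and the NdpKO;Ptch+/- MBs overlapped with the GNPs. The difference between tumors was -1.003 ± 0.145 (SE, n = 4 and 4; adjusted p = 0.0131, limma), and that of Ptch+/- MBs from GNPs was 0.70 ± 0.14 (adjusted p = 0.00896), while that of NdpKO;Ptch+/- MBs from GNPs was -0.30 ± 0.14 (adjusted p = 0.232). The first and second of these share the Ptch+/- arrays and are not independent. A second Foxm1 probe gave -0.84 between tumors (adjusted p = 0.0671) and 0.77 for Ptch+/- MBs against GNPs (adjusted p = 0.0181), in the same directions but with the first no longer past the threshold. Its signals were 10.04 to 10.32 in Ptch+/- MBs and 8.96 to 9.60 in NdpKO;Ptch+/- MBs, without overlap.

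The members next in order of p were not called. Kif23, a kinesin of the central spindle, had 11.88, 12.25, 12.16 and 12.44 in Ptch+/- MBs and 11.42, 11.46, 11.97 and 11.28 in NdpKO;Ptch+/- MBs. NdpKO;Ptch+/- replicate 3 lay above the lowest Ptch+/- MB, and the difference was -0.65 ± 0.16 (adjusted p = 0.109); without that array it was past the threshold. Other Kif23 probes gave -0.23 and 0.00, and a dim probe near background gave -0.35 (adjusted p = 0.0432, called). Cdca3, a trigger of mitotic entry, had 12.33, 12.24, 12.02 and 12.58 against 11.87, 11.99, 12.06 and 11.97 (-0.32 ± 0.11, adjusted p = 0.246). Mad2l1, the checkpoint protein that is loaded at unattached kinetochores, had 11.73, 11.79, 11.52 and 12.02 against 11.34, 11.66, 11.22 and 11.30 (-0.39 ± 0.16, adjusted p = 0.343). In both genes the groups overlapped by 1 array of each. Ccna2, cyclin A2, leaned the other way with dim and scattered signals of 4.54, 5.21, 4.45 and 4.99 in Ptch+/- MBs and 5.60, 5.99, 6.01 and 5.04 in NdpKO;Ptch+/- MBs (0.86 ± 0.34, adjusted p = 0.305). Ttk, the checkpoint kinase MPS1, was at background on 11 of 12 arrays and reached 4.69 on NdpKO;Ptch+/- replicate 2.

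The kinases and the topoisomerase at the core of mitosis were not called either, and their tumor groups overlapped. Cdk1 had 11.18, 10.79, 10.84 and 11.19 in Ptch+/- MBs and 11.17, 11.55, 11.27 and 10.99 in NdpKO;Ptch+/- MBs (0.24 ± 0.16, adjusted p = 0.602). Plk1 had 10.31, 11.12, 11.04 and 10.69 against 10.41, 10.97, 10.44 and 10.34 (-0.25 ± 0.31, adjusted p = 0.825), and its 95% interval ran from -0.95 to 0.44. Aurka, the kinase of the spindle poles, had 10.85, 10.60, 10.43 and 10.72 against 10.76, 10.82, 10.84 and 10.50 (0.08 ± 0.18, adjusted p = 0.927). Top2a, which untangles chromosomes, had 12.29, 12.06, 12.09 and 11.99 against 12.17, 12.24, 12.41 and 11.95, a difference of 0.08 with a 95% interval from -0.24 to 0.41. Its other probes leaned the other way, at -0.29 and -0.38, and were not called (adjusted p = 0.55 and 0.479, limma). The last of these probes had a mean under the background limit.

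**Figure D2:**
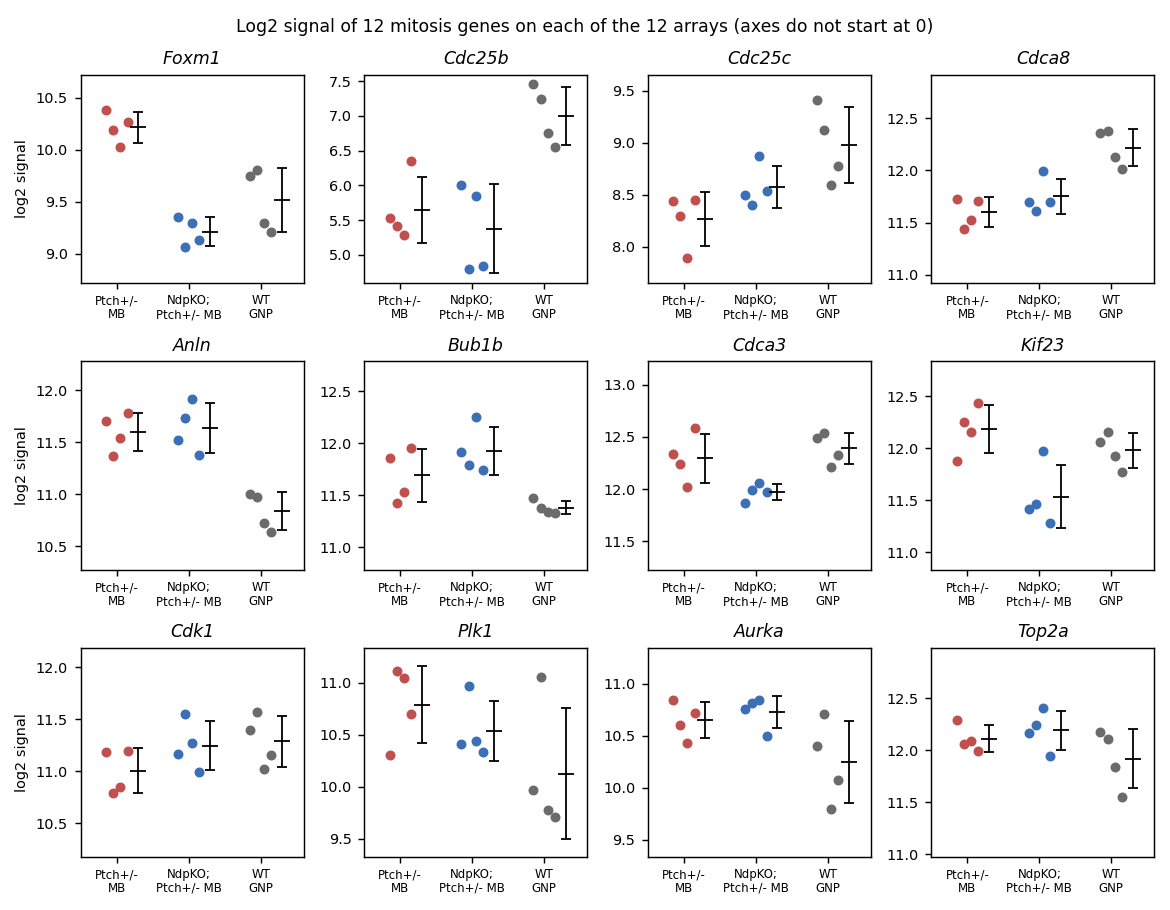
Log2 signal of 12 members on each array: Ptch+/- MBs (red), NdpKO;Ptch+/- MBs (blue) and wild-type GNPs (grey), with the mean and SD of 4 arrays in black; the axes do not start at 0 and each spans at least 2 log2 units. Foxm1 is the gene whose tumor groups do not overlap, Cdc25b and Cdca8 lie highest in GNPs and Anln lowest there.

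Between Ptch+/- MBs and GNPs, 5 members were called. Foxm1 and Anln rose, and Cdc25b, Cdc25c and Cdca8 fell, leaving 38 of 43 not called. The background in this comparison was far higher, with 10.3% of all genes called higher and 10.9% lower, or 19.7% and 18.5% of measured genes. The 2 members called higher were 4.65% of those with a probe and the 3 called lower 6.98%, both below the shares of all genes. All 5 called members were among the 34 that were measured. At an unadjusted p under 0.05 there were 15 members (34.9%) against 34.3% of all genes. The median difference of measured members was -0.06, with 15 above 0 and 19 below, beside -0.01 for all measured genes. For NdpKO;Ptch+/- MBs against the same GNP arrays, Bub1b and Anln rose and Cdc25b, Cdca8 and Cdca3 fell, with a median of 0.02 beside 0.04. Here 7.69% of all genes were called higher and 7.98% lower, or 15.5% and 13.3% of measured genes, and at an unadjusted p under 0.05 there were 10 members (23.3%) against 29.7% of all genes. Since both comparisons use the 4 GNP arrays, their values for a member are given side by side and not as separate evidence.

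At mitotic entry, 9 of 10 genes had a probe and 7 were measured. Cdc25b, a phosphatase that activates CDK1 at the centrosome, had 7.46, 7.24, 6.75 and 6.56 in GNPs, 5.54, 5.41, 5.29 and 6.35 in Ptch+/- MBs and 6.01, 4.80, 5.85 and 4.84 in NdpKO;Ptch+/- MBs. Every GNP sample lay above every tumor. The differences from GNPs were -1.36 ± 0.36 (adjusted p = 0.0275) and -1.63 ± 0.36 (adjusted p = 0.0151), or signal ratios of 0.39 and 0.324. The call in Ptch+/- MBs was lost when any of 3 Ptch+/- arrays (replicates 1, 2 and 3) or either of GNP replicates 1 and 2 was left out, with adjusted p up to 0.076 over all settings. That call was also lost with the replicate number as a block. Cdc25c, which acts in the nucleus, had 9.41, 9.12, 8.59 and 8.78 in GNPs, 8.44, 8.29, 7.90 and 8.45 in Ptch+/- MBs and 8.49, 8.40, 8.87 and 8.54 in NdpKO;Ptch+/- MBs. It differed by -0.71 ± 0.19 in the former (adjusted p = 0.033), a second probe giving -0.78 (adjusted p = 0.0152), and by -0.40 ± 0.19 in the latter (adjusted p = 0.239). The first call was lost when Ptch+/- replicate 2 or 3 or GNP replicate 1 or 2 was left out. It was also lost with these groups fitted alone and with the replicate number as a block.

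No entry kinase was called. Cdk1 had 11.40, 11.57, 11.02 and 11.16 in GNPs, within the range of both tumors combined or just above it (-0.28 and -0.04). Plk1 had 9.97, 11.06, 9.78 and 9.71 in GNPs, so that 3 of the 4 lay under every tumor and replicate 2 lay among the highest. Its differences were 0.66 ± 0.31 (adjusted p = 0.192) and 0.41 ± 0.31 (adjusted p = 0.473), and without GNP replicate 2 the first was 0.97 with an adjusted p of 0.0195. Aurka had 10.40, 10.71, 9.80 and 10.08 in GNPs, also highest in replicate 2 (0.40 ± 0.18 and 0.48 ± 0.18, adjusted p = 0.173 and 0.127), and without that array both differences were past the threshold. Nek2, a kinase that splits centrosomes, reached 4.59 and 6.17 on GNP replicates 1 and 2 and was under 4.5 on the other 10 arrays.

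Of the genes of chromosome structure, Top2a had 12.18, 12.11, 11.84 and 11.55 in GNPs, with differences of 0.19 and 0.27 that were not called (adjusted p = 0.45 and 0.292). Its probes disagreed. The second, at a lower signal, had 8.38, 8.49, 7.95 and 7.86 in GNPs, 9.50, 9.18, 9.08 and 9.37 in Ptch+/- MBs and 9.15, 8.90, 9.23 and 8.70 in NdpKO;Ptch+/- MBs, all tumors above all GNPs. It gave 1.11 (adjusted p = 0.00193) and 0.82 (adjusted p = 0.0127). The array can therefore not say which of the values stands for Top2a. At the kinetochore, 4 of 5 genes were measured and none was called. Cenpa, the histone that marks centromeres, had the smallest p between Ptch+/- MBs and GNPs there, with 14.20, 14.17, 13.86 and 13.85 in GNPs, 13.92, 13.73, 13.59 and 13.87 in Ptch+/- MBs and 13.90, 14.14, 14.17 and 13.83 in NdpKO;Ptch+/- MBs, all overlapping (-0.24 ± 0.12, adjusted p = 0.211, and -0.01). Cenpf, a large protein of the outer kinetochore, had the largest difference, 1.11 ± 0.33 for NdpKO;Ptch+/- MBs against GNPs, short of the threshold (adjusted p = 0.0597).

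All 4 subunits of the chromosomal passenger complex, which corrects faulty attachments, were measured and 1 was called. Cdca8, the borealin subunit, had 12.36, 12.38, 12.13 and 12.01 in GNPs, 11.73, 11.44, 11.53 and 11.71 in Ptch+/- MBs and 11.70, 11.61, 11.997 and 11.70 in NdpKO;Ptch+/- MBs. Every GNP sample lay above every tumor, with the closest pair at 12.01 and 11.997. The differences were -0.62 ± 0.11 (adjusted p = 0.00447) and -0.47 ± 0.11 (adjusted p = 0.0228), and a second probe gave -0.97 and -0.69, both called. On the brighter probe the call in Ptch+/- MBs held in all 21 alternative settings and that in NdpKO;Ptch+/- MBs in 15. The latter was lost without NdpKO;Ptch+/- replicate 1, 2 or 4 or GNP replicate 1 or 2. It was also lost with the replicate number as a block (adjusted p up to 0.0684 over all settings). The kinase Aurkb (-0.18 and 0.04), its scaffold Incenp (0.08 and 0.00) and survivin, Birc5 (-0.24 and -0.05), were not called on their brightest probes. The dimmest Birc5 probe was called lower in Ptch+/- MBs (-0.51, adjusted p = 0.0223). Whether Cdca8 differs from its partners in its response was not tested.

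In the spindle checkpoint, 2 of 4 genes were measured. Bub1b, the checkpoint kinase BUBR1, had the smallest SD of the measured members in GNPs, at 11.47, 11.38, 11.34 and 11.33, and higher and more scattered in tumors, at 11.85, 11.43, 11.53 and 11.95 in Ptch+/- MBs and 11.92, 11.79, 12.25 and 11.74 in NdpKO;Ptch+/- MBs. The differences were 0.31 ± 0.14 (adjusted p = 0.167) and 0.55 ± 0.14 (adjusted p = 0.0287), with 0.24 ± 0.14 between the tumors (adjusted p = 0.534), so the tumor genotypes are not shown to differ. A second Bub1b probe gave 0.39 and 0.62, with the latter called as well. On the brighter probe that call was lost when NdpKO;Ptch+/- replicate 1 or 3 or any GNP array was left out. It was also lost with the replicate number as a block. Mad2l1 had 11.57, 11.63, 11.01 and 11.18 in GNPs and was not called (0.42 and 0.03). Of 9 spindle motors and microtubule-associated proteins 8 were measured and none was called in any comparison. Kif2c, a kinesin that takes microtubules apart at centromeres, came nearest, with 10.54, 10.60, 10.14 and 10.12 in GNPs, 10.87, 10.77, 10.69 and 10.84 in Ptch+/- MBs and 10.68, 10.50, 11.09 and 10.72 in NdpKO;Ptch+/- MBs (0.44 ± 0.14, adjusted p = 0.0635, and 0.40 ± 0.14, adjusted p = 0.113). Kif11, the motor that pushes the spindle poles apart, differed by -0.11 and 0.12, and Tpx2, which brings Aurora A to the spindle, by -0.22 and -0.14.

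Of 5 genes of cohesion, anaphase and mitotic exit 4 were measured. Cdca5, the sororin that guards cohesion, had 9.31, 9.50, 8.90 and 9.03 in GNPs, 8.68, 8.57, 8.84 and 8.996 in Ptch+/- MBs and 8.75, 9.18, 8.64 and 8.78 in NdpKO;Ptch+/- MBs (-0.41 and -0.35, adjusted p = 0.115 and 0.217). Cdca3 had 12.49, 12.54, 12.21 and 12.33 in GNPs, above all NdpKO;Ptch+/- MBs and within the range of Ptch+/- MBs. Its differences were -0.42 ± 0.11 for the former (adjusted p = 0.0407) and -0.10 ± 0.11 for the latter (adjusted p = 0.65). The Cdca3 call was lost in 11 of 21 alternative settings, among them the removal of any 1 of 9 arrays, and a second probe gave -0.17. Cdc20, the activator of the anaphase-promoting complex, was the flattest of the group on its brightest probe, at -0.01 and 0.00, although its dimmest probe was called lower in Ptch+/- MBs (-0.74, adjusted p = 0.0381).

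In cytokinesis 4 of 6 genes were measured. Anln, the anillin that organises the contractile ring, had 11.01, 10.97, 10.73 and 10.64 in GNPs, 11.71, 11.37, 11.54 and 11.78 in Ptch+/- MBs and 11.52, 11.74, 11.92 and 11.38 in NdpKO;Ptch+/- MBs. All 8 tumors lay above all 4 GNP samples. The differences were 0.76 ± 0.14 (adjusted p = 0.00458) and 0.80 ± 0.14 (adjusted p = 0.0046), ratios of 1.70 and 1.74, and the tumors differed by 0.04. A second, dim Anln probe gave 0.32 and 0.28, neither called, and another was at background. With the mean of the Anln probes in place of the brightest, the differences were 0.36 (adjusted p = 0.0413) and 0.36 (adjusted p = 0.0537). Kif23 had 12.06, 12.16, 11.92 and 11.77 in GNPs (0.20 and -0.44, adjusted p = 0.477 and 0.123). Ect2, the exchange factor that activates RhoA at the cell's equator, was not called at -0.72 ± 0.27 and -0.46 ± 0.27 (adjusted p = 0.101 and 0.334), and Prc1, which bundles the central spindle, differed by 0.07 and 0.04.

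**Figure D3:**
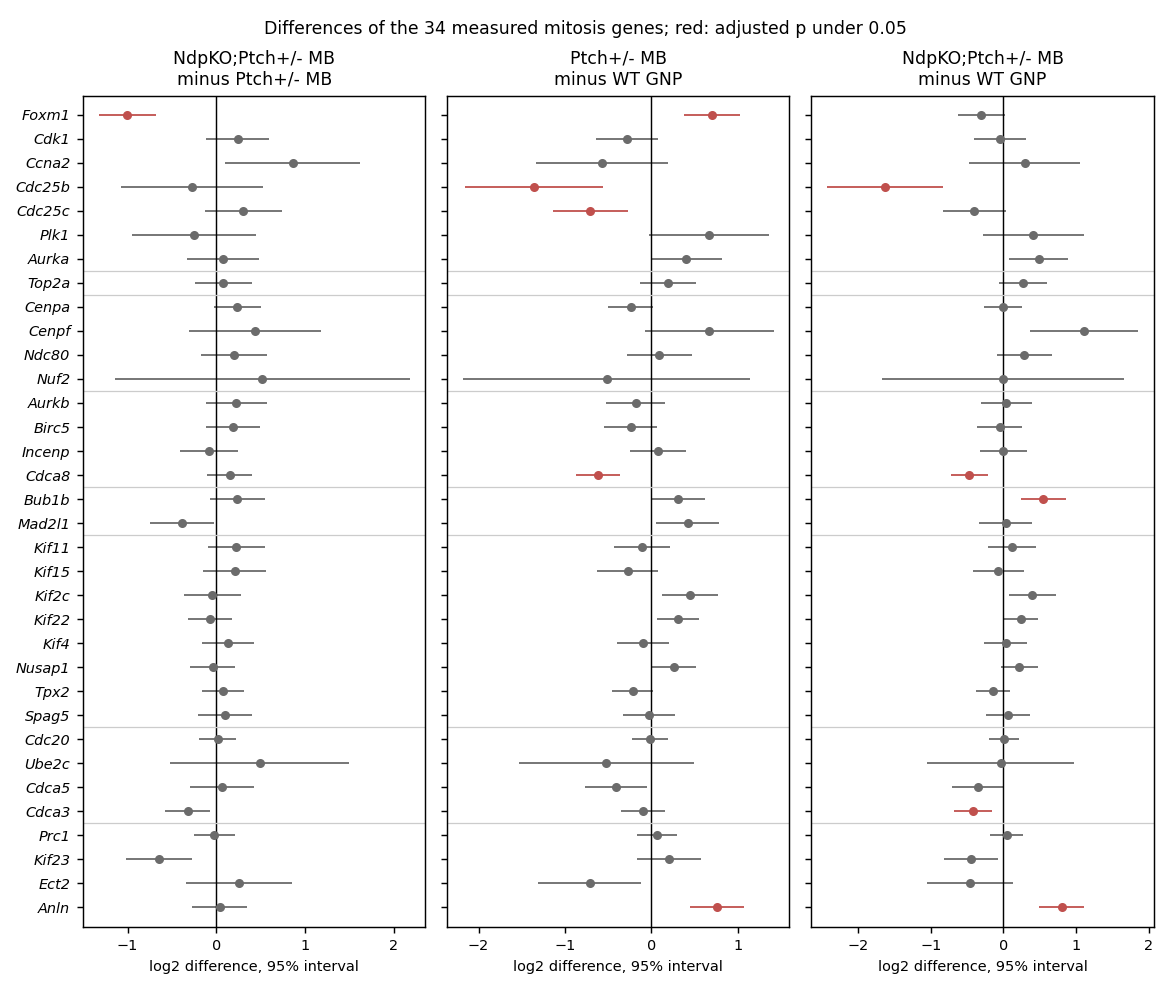
Log2 difference and 95% interval of each of the 34 measured members in the 3 comparisons, in order of role (grey lines separate the roles), with called members in red; the middle and right panels share the GNP arrays and the left and middle the Ptch+/- arrays. A single red point, Foxm1, stands in the left panel, and 5 stand in each of the others, on both sides of 0.

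The members varied together from array to array within a group, by more than their medians differed between groups. In GNPs, 30 and 31 of the 34 measured members lay above their group mean on replicates 1 and 2 but 4 and 1 on replicates 3 and 4, with median deviations of 0.16, 0.20, -0.19 and -0.20 on the log2 scale. Among NdpKO;Ptch+/- MBs the counts were 7, 22, 29 and 2, and among Ptch+/- MBs 21, 7, 7 and 30. Of all 8913 measured genes, between 4238 and 4621 lay above the group mean on any array, with median deviations no larger than 0.01. The SD of the array medians of the members was 0.22 in GNPs, 0.17 in NdpKO;Ptch+/- MBs and 0.11 in Ptch+/- MBs, larger than the median differences of -0.06 to 0.09 between groups. Members within an array share 1 RNA sample and are not independent.

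The 80 other measured mitosis genes moved with the members, with 68, 66, 12 and 20 above the mean in GNPs, 36, 47, 62 and 21 in NdpKO;Ptch+/- MBs and 51, 25, 28 and 63 in Ptch+/- MBs. DNA replication genes did so in GNPs (33, 35, 5 and 8 of 40), while in NdpKO;Ptch+/- MBs they were high on replicate 1 and not on replicate 3 (32, 22, 17 and 3). Of the 14 measured genes of postmitotic granule neurons, 3, 5, 10 and 13 were above the mean in GNPs, 4, 3, 8 and 12 in NdpKO;Ptch+/- MBs and 12, 10, 10 and 0 in Ptch+/- MBs. These counts ran opposite to the members' on all GNP arrays, NdpKO;Ptch+/- replicates 2 and 4 and Ptch+/- replicates 2, 3 and 4. They ran the same way on NdpKO;Ptch+/- replicates 1 and 3 and on Ptch+/- replicate 1. Their part in the members' variation was not tested. The members' median SD was 0.27 in GNPs, beside 0.15 for all measured genes, and 0.20 and 0.19 in the tumors, beside 0.23 and 0.22. In bulk RNA, fewer dividing cells and less of a transcript per cell cannot be told apart.

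**Figure D4:**
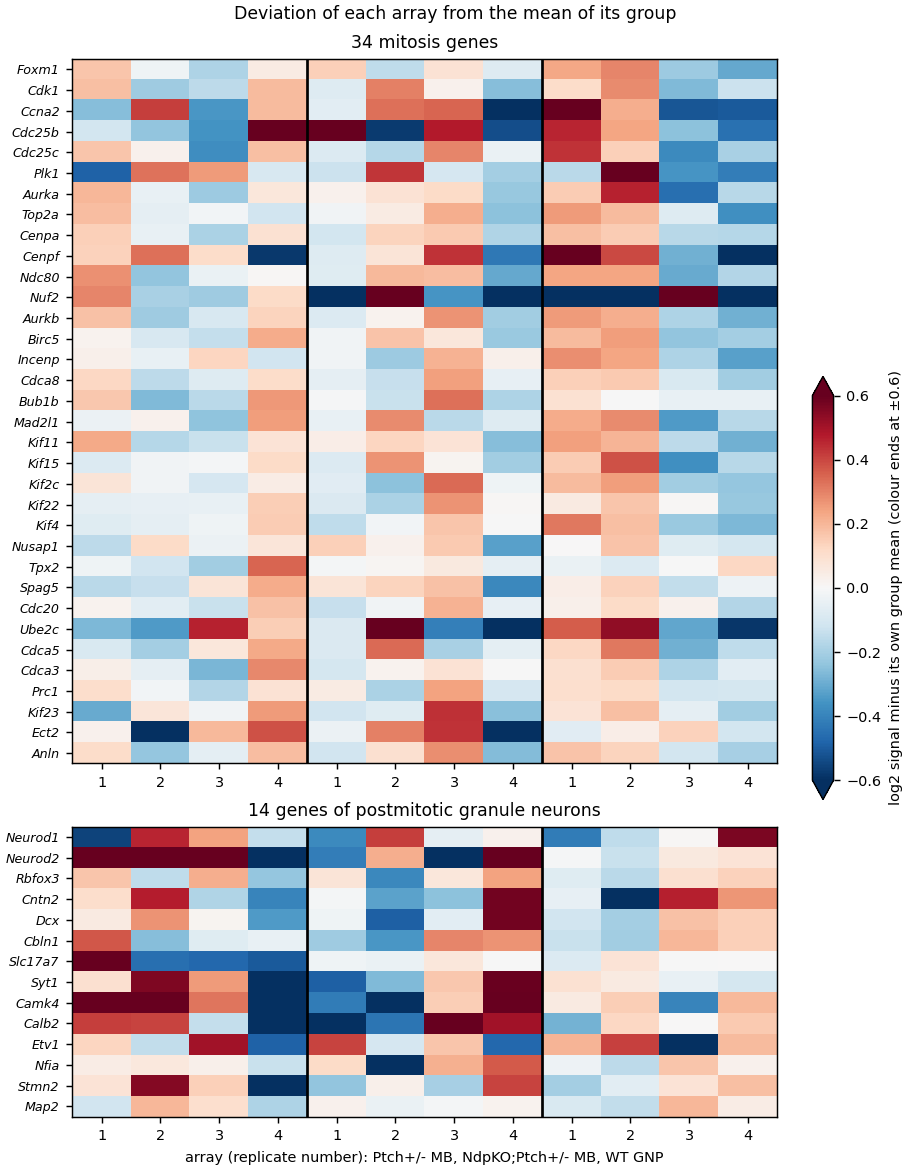
Log2 signal of each array minus the mean of its own group, for the 34 measured members (top) and the 14 measured genes of postmitotic granule neurons (bottom), with red above and blue below the mean and groups divided by black lines. Whole columns of members take 1 colour, such as red on GNP replicates 1 and 2 and blue on 3 and 4, and the neuron genes tend to the opposite colour on replicate 4 of each group but not on NdpKO;Ptch+/- replicate 3.

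Other genes of the cell cycle were taken from lists fixed by name. Of 102 other mitosis genes with a probe, 2 were higher and 1 lower between the tumors, counts that ran from 0 to 4 and from 0 to 2 over the alternative settings. Anapc13 (0.48, adjusted p = 0.0192) and Anapc2 (0.57, adjusted p = 0.0288), subunits of the anaphase-promoting complex, were higher in NdpKO;Ptch+/- MBs, and Ncapd2, a condensin subunit, was lower (-0.52, adjusted p = 0.0215). Against GNPs, 12 were higher and 7 lower in Ptch+/- MBs (11.8% and 6.86%, beside 10.3% and 10.9% of all genes) and 9 and 0 in NdpKO;Ptch+/- MBs (8.82%, beside 7.69% of all genes called higher and 7.98% lower). The latter counts ran from 3, without NdpKO;Ptch+/- replicate 1, to 17 higher and from 0 to 7 lower, and were 16 and 7 with arrays centred on the median of probes above background. Espl1, the separase that cuts cohesin, rose by 1.34 and 1.10 (adjusted p = 0.000444 and 0.0019) and Numa1, which anchors the spindle poles, by 0.88 and 0.65, while Mad1l1, the partner of Mad2l1, differed by -0.96 in Ptch+/- MBs (adjusted p = 0.00296) and by -0.26 in NdpKO;Ptch+/- MBs (adjusted p = 0.363), with 0.69 between the tumors (adjusted p = 0.0806).

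Of 45 DNA replication genes 15 were higher and 1 lower in Ptch+/- MBs than in GNPs (33.3% and 2.22%). The shares beside these were 4.65% and 6.98% of members and 10.3% and 10.9% of all genes. In NdpKO;Ptch+/- MBs 11 were higher and 0 lower (24.4% and 0%, beside 7.69% and 7.98% of all genes). Between the tumors, Mcm2, a subunit of the replicative helicase, and E2f1, the factor of S phase entry, were lower in NdpKO;Ptch+/- MBs (-0.77, adjusted p = 0.00661, and -0.60, adjusted p = 0.0422, limma). They were 4.44% of the list, beside 1.26% of all genes, and the count lower ran from 1 to 3 over the alternative settings. Of 16 G1 cyclins, kinases and inhibitors, 8 were higher and 1 lower in Ptch+/- MBs than in GNPs (50% and 6.25%), and 5 and 1 in NdpKO;Ptch+/- MBs (31.2% and 6.25%). Between the tumors 1 was higher and 3 were lower (6.25% and 18.8%, beside 0.808% and 1.26% of all genes). These counts fell to 0 higher without NdpKO;Ptch+/- replicate 3 or Ptch+/- replicate 2 or 3, and to 0 lower without Ptch+/- replicate 1. Both fell to 0 with the tumors fitted alone. Ccnd2 had means of 14.07 ± 0.06 in Ptch+/- MBs, 13.21 ± 0.23 in NdpKO;Ptch+/- MBs and 13.27 ± 0.29 in GNPs (SD, n = 4), lower between tumors by the test (-0.85, adjusted p = 0.028), and Ccnd3 was higher (0.62, adjusted p = 0.0214). Cdkn2a, the locus of p16 and Arf, had 7.90 ± 1.28 in Ptch+/- MBs, 4.58 ± 0.41 in NdpKO;Ptch+/- MBs and 4.12 ± 0.01 in GNPs, where it was at background. No test compared the lists with each other.

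**Figure D5:**
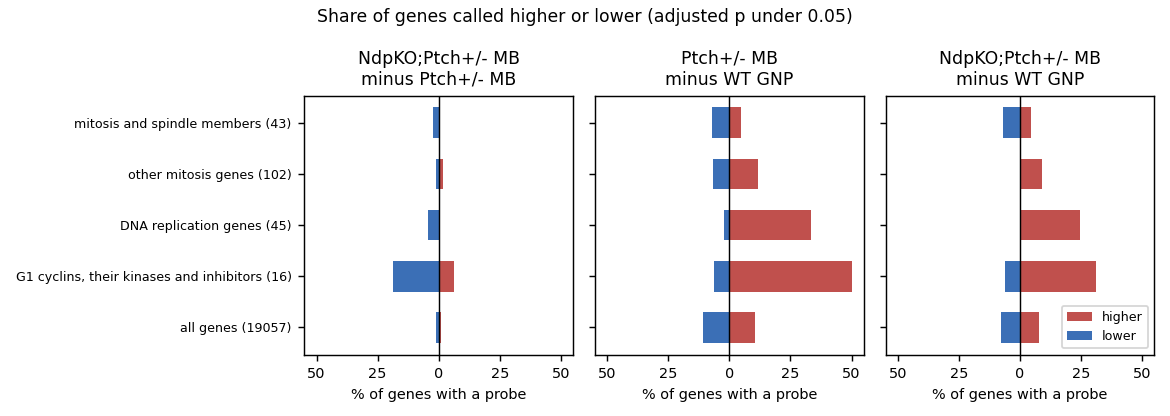
Percent of genes with a probe called higher (red, right) or lower (blue, left) at an adjusted p under 0.05 in each comparison, for the members, 3 other cell cycle lists and all genes, with the number of genes in parentheses. In both comparisons with GNPs, 4.65% of members were called higher and 6.98% lower. The shares of all genes were 10.3% and 10.9% for Ptch+/- MBs and 7.69% and 7.98% for NdpKO;Ptch+/- MBs. DNA replication genes and G1 genes reached 33.3% and 50% higher in Ptch+/- MBs.

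Genes of other cell types moved with the comparison of tumors and GNPs, and their part in the members' values was not tested. Against GNPs, 10.3% of all genes were called higher and 10.9% lower in Ptch+/- MBs, and 7.69% and 7.98% in NdpKO;Ptch+/- MBs. Of 11 microglia markers with a probe 7 were higher in each tumor group, and the mean log2 signal of the list was 5.17 to 5.58 in GNPs, 7.30 to 8.22 in Ptch+/- MBs and 7.20 to 7.69 in NdpKO;Ptch+/- MBs. Of 9 oligodendrocyte markers 6 were lower and 1, Olig1, higher in each tumor group (list means of 8.78 to 10.21 in GNPs, 6.67 to 7.34 in Ptch+/- MBs and 7.03 to 7.59 in NdpKO;Ptch+/- MBs). Of 9 fibroblast and meningeal markers 3 were lower and 1, Pdgfra, higher in each, Olig1 and Pdgfra being named after their values were seen. Of 12 endothelial markers 6 were lower and 1 higher in Ptch+/- MBs, and 1 was lower in NdpKO;Ptch+/- MBs, and of 19 genes of postmitotic granule neurons 6 were lower and 2 higher in Ptch+/- MBs, and 4 and 2 in NdpKO;Ptch+/- MBs. Between the tumors, 2 endothelial markers, Emcn and Robo4, were higher in NdpKO;Ptch+/- MBs, with 0 called when any 1 of NdpKO;Ptch+/- replicates 2 to 4, Ptch+/- replicates 2 to 4 or the 4 GNP arrays was left out. With all arrays, no marker of microglia, astrocytes, oligodendrocytes, granule progenitors or granule neurons was called between the tumors (limma; 3, 1, 1, 2 and 1 at an unadjusted p under 0.05). The 3 red blood cell markers had list means of 8.14 to 9.93 in NdpKO;Ptch+/- MBs, 5.34 to 8.49 in Ptch+/- MBs and 8.81 to 10.13 in GNPs, and none was called between the tumors (2 at an unadjusted p under 0.05). Against GNPs, 2 of them were lower in Ptch+/- MBs, a count of 0 to 2 over the alternative settings, and 0 were called in NdpKO;Ptch+/- MBs. Of 9 astrocyte markers 3 were higher and 1 lower in Ptch+/- MBs than in GNPs, and 2 and 0 in NdpKO;Ptch+/- MBs. For 4 Purkinje cell markers the counts were 0 and 1, and 1 and 1.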

How the data were processed

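Total RNA of 4 NdpKO;Ptch+/- MBs, 4 Ptch+/- MBs and 4 wild-type GNP samples was hybridised to 12 Illumina MouseWG-6 v2.0 arrays, and groups were taken from the sample labels. The authors exported probe signals from BeadStudio and deposited them on the log2 scale after neqc in limma. That step subtracts a background estimated from negative controls and quantile-normalizes the arrays, so a change in total RNA level cannot be seen. The version used, the chips and the scan dates are not given in the sources used here.

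Differences and tests were computed with limma 3.58.1 (R 4.3.3). The annotation table gave 1 symbol to 34885 of 45281 probes, several to 18 and none to 10378, and the brightest probe on average stood for each gene. A group-means model over 12 arrays (lmFit, eBayes) was fitted to every probe on the array, with Benjamini-Hochberg adjustment across the whole table and a threshold of 0.05. The number of arrays, 4 a group, limits the precision. A mean of 4.5 was the background limit. The model was run on simulated data with independent noise in each probe. That simulation lacks the shared shifts of members from array to array and does not address them. Differences are on the log2 scale, and their ratios understate true ratios near the floor.

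The members and lists, the limit and the rule for naming genes were chosen with earlier results of these data known. By that rule, values on every array are given for the 6 members with the smallest p between tumors, for 1 member of each role (the largest difference among those called in both comparisons with GNPs, or else the smallest p in Ptch+/- MBs against GNPs), and for Mki67, Top2a, Cdk1, Ccnb1, Aurka, Plk1 and Foxm1 where they had a probe; Bub1b and Cdc25c were added because they complete a count of calls. Of other lists up to 3 genes, and of other mitosis genes up to 6, are named by smallest p. Promoter sequences and positions are from RefSeq (GRCm38.p6). The promoter sequence of 1 further member is not reported here. The alternatives were other scalings, filters, priors and weights, the 2 groups alone, the replicate number as a block, the mean of a gene's probes, and leaving out each array.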

Additional observations from a re-analysis of the deposited data

Results flagged for a closer look

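Over the 34 measured members, 102 groups of 4 arrays were searched for an array whose gap to the nearest of the others takes up most of the range of its group, beyond Dixon's critical value, which chance alone finds in about 1 group in 20. There were 4 such groups. Nuf2, a subunit of the NDC80 complex at the kinetochore, read 6.99 on GNP replicate 3 and 6.66 on NdpKO;Ptch+/- replicate 2, while the other GNPs lay at 4.14 to 4.17 and the other NdpKO;Ptch+/- MBs at 4.13 to 4.51. Plk1 read 10.97 on NdpKO;Ptch+/- replicate 2, above 10.34 to 10.44 on the others. Kif22, a kinesin that moves along chromosome arms, read 12.13 on Ptch+/- replicate 4, above others that lay together at 11.93 to 11.94.

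Foxm1 stood apart because its difference from GNPs was not the same in the tumor genotypes. The test of that difference is the comparison of the tumors itself, -1.003 on the log2 scale with an adjusted p of 0.0131 (limma). A dim Kif23 probe that the comparisons do not use was called between the tumors, by -0.35 with an adjusted p of 0.0432 (limma), with signals of 4.38 to 4.76 in Ptch+/- MBs and of 4.19 to 4.32 in NdpKO;Ptch+/- MBs, the latter under the background limit.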

How the results depend on the processing

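Under 21 alternatives for each comparison, no called difference of a member named by the rule changed its sign. For Bub1b and Cdc25c, only the calls were followed through the alternatives. Foxm1 was called lower between tumors and higher in Ptch+/- MBs than in GNPs under all 21, and 0 members were called higher between tumors under any (limma). None of these settings used the second Foxm1 probe alone. That probe, of nearly the same mean signal, was not called between tumors (adjusted p = 0.0671, limma). The count lower between tumors was 2, with Kif23 added, under an intensity trend with a robust prior, and 1 to 2 when single arrays were left out (2 without NdpKO;Ptch+/- replicate 3). Members higher in Ptch+/- MBs than in GNPs numbered 4 with dim probes left out and 4 with the trend, Kif2c and Kif22 being added, and 2 to 5 without single arrays (5 without NdpKO;Ptch+/- replicate 3 and 5 without GNP replicate 2). Members lower there numbered 1 to 4 without single arrays, with Cdca8 alone when Ptch+/- replicate 2, Ptch+/- replicate 3 or GNP replicate 1 was left out. For NdpKO;Ptch+/- MBs against GNPs, 1 to 4 members were higher and 1 to 4 lower without single arrays. Anln alone was higher without NdpKO;Ptch+/- replicate 1 or 3 or GNP replicate 3 or 4, 4 were higher without NdpKO;Ptch+/- replicate 4, and Cdc25b alone was lower without NdpKO;Ptch+/- replicate 1, 2 or 4 or GNP replicate 1. The medians of the measured members without single arrays ran from 0.05 to 0.18 between tumors, from -0.12 to -0.01 for Ptch+/- MBs against GNPs and from -0.06 to 0.09 for NdpKO;Ptch+/- MBs against GNPs, and other settings moved them by less than the spread between arrays. Samples with the same replicate number did not deviate together (r of -0.19 to 0.13), so the replicate number does not pair them. With the replicate block, 1 member was lower in Ptch+/- MBs than in GNPs (Cdca8) and 1 in NdpKO;Ptch+/- MBs (Cdc25b), and over all probes 223 were called between tumors in place of 624. The share of member promoters with a CHR was 37.5% in the 250 bases before the start alone, since 20 windows hold one after it, and 62.5% on the gene's own strand alone. For the other lists the same alternatives, added after the data were seen, kept 1310 of 1512 counts within 1.5 times of the values given. Scattered signals near the floor limit Nuf2 and Ube2c, which had the largest standard errors of the members.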
